A study of Mus musculus with 8 samples.

Results

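The kappa V segments are the genes that encode the variable domain of the kappa immunoglobulin light chain. They were chosen by annotation alone: a row of the deposited gene table was taken when its Ensembl identifier has the GENCODE M21 biotype IG_V_gene and its symbol begins with Igkv. This gave 99 segments of the 26589 genes in the table, and the number between Igkv and the hyphen sorted them into 20 families. One further segment of the annotation, Igkv1-131, was not analysed here. The 8 libraries came from splenic B cells of a reporter strain, IL-10-eGFP Tiger, whose cells carry a green fluorescent protein when they express interleukin 10. The cells were purified, cultured with lipopolysaccharide (LPS) at 3 µg/ml for 48 h and sorted into an IL-10+ and an IL-10- group of 4 libraries each, so both groups had seen LPS, although a label field of every sample reads untreated. The age and sex of the mice and the marker used to purify the B cells are not given, and the labels do not say whether a replicate number stands for a mouse or a culture, so p-values measure the spread between these libraries. Il10, whose reporter set the gate, had 32 to 44.4 FPKM in the IL-10+ group and 1.28 to 4.76 FPKM in the other, a check of the labels and not a finding.

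A kappa light chain gene is assembled when the RAG recombinase joins 1 V segment to 1 of the J segments that lie just before the constant exon Igkc. The joined gene is transcribed from the promoter of the chosen V segment, and splicing removes the intron between J and Igkc. A clone of B cells therefore reads mainly from the V segment it has chosen, and the mixture of V transcripts in a population reflects both which segments its cells chose and how much light chain RNA each cell makes. Antibody-secreting plasmablasts, which LPS induces, hold far more immunoglobulin RNA than resting B cells.

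The segments lay on chromosome 6 (GRCm38, the NCBI counterpart of mm10) between positions 67555497 and 70704177, at 22.3 to 3170.2 kb before Igkc, which occupies positions 70726435 to 70726966 on the plus strand. Of the 99, 38 were on the plus strand, the strand of Igkc, and 61 on the minus strand, from which joining requires an inversion of the DNA between V and J. Each segment has 2 exons, a short leader exon and the V exon, and their summed exon length was 338 to 501 bases with a median of 362. Values are FPKM, that is fragment numbers scaled by exon length and by the size of the library. From the steps in the low values the library totals came out at 27380380 to 29968300 reads, and 1 read in a segment of median length was worth 0.0922 to 0.101 FPKM. The kappa V segments together held 25409 to 136188 reads a library. A segment was tested when it, like any other gene, reached 1 FPKM in at least 4 libraries, which 97 of the 99 did. The other two, Igkv2-137 and Igkv1-35, stayed at or below 0.404 FPKM in every library.

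Transcripts of nearly all kappa V segments were more abundant in IL-10+ than in IL-10- cells. Summed over the 99 segments, the IL-10+ libraries held 13462, 11742, 10657 and 9821 FPKM in the order of replicates 1 to 4. The IL-10- libraries held 2457, 2807, 3417 and 2961 FPKM. The groups did not overlap, and their means of 11421 ± 1572 (SD, n = 4) and 2911 ± 398 (SD, n = 4) differed 3.92-fold. The kappa V segments made up 3.16% ± 0.377 (SD, n = 4) of all FPKM in the IL-10+ group and 0.881% ± 0.112 (SD, n = 4) in IL-10- libraries. In such bulk libraries, more cells with kappa transcripts and more kappa RNA per cell cannot be told apart.

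In limma's test on log2(FPKM + 1) across 11329 genes, with Benjamini-Hochberg adjustment, 93 of the 97 tested segments were higher in IL-10+ and 0 were lower at an adjusted p below 0.05, and 97 were higher and 0 lower at an unadjusted p below 0.05. Of all genes tested, 10.6% were higher and 9.18% lower. The FPKM of 93 of the 97 segments did not overlap between the groups with IL-10+ above, which held for 12.2% of all genes. The median log2 change over the segments was 1.72, with quartiles of 1.46 and 2.14 and a range from 0.60 to 5.08, against a median of -0.06 over all genes tested. On this scale the change of segments with a few FPKM is understated. The members of the other V gene families moved in the same direction, with 95 of 95 tested heavy chain V segments (Ighv) higher at a median of 2.02 and 3 of 3 lambda V segments (Iglv) higher at a median of 2.47.

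**Figure D1:**
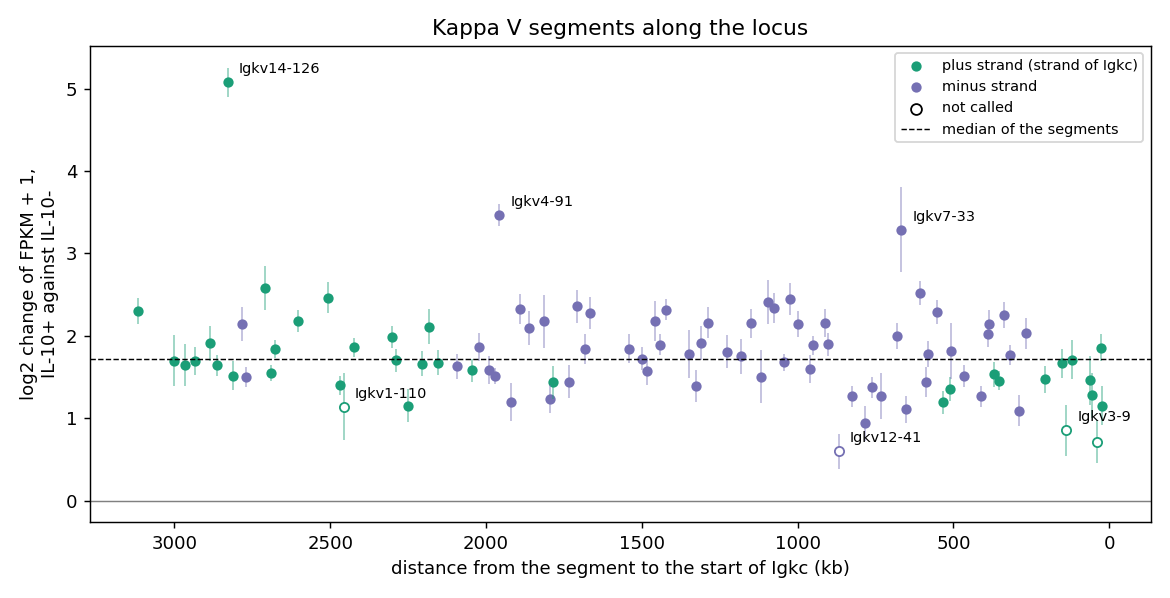
Each point is 1 of the 97 tested kappa V segments, placed by its distance to Igkc (x axis, kb, distal segments at the left) and its log2 change of FPKM + 1 in IL-10+ against IL-10- (y axis, n = 4 libraries each), with bars of 1 standard error; green and purple mark the plus and minus strand and open circles the 4 segments that were not called. All points lie above 0, most near the median of 1.72, and Igkv14-126 stands highest at 5.08.

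The 4 segments that missed the threshold also had higher means in IL-10+ libraries. Igkv12-41 had 40.8, 33.4, 49.1 and 35.2 FPKM in the IL-10+ group and 19.9, 24.4, 40.1 and 21.9 FPKM in the IL-10- group. Its groups overlapped because IL-10- replicate 3 exceeded 2 of the IL-10+ libraries, and the log2 change was 0.60 ± 0.21 (SE) at a limma adjusted p of 0.0894. Igkv1-110 had a log2 change of 1.14 ± 0.41 (SE) and an adjusted p of 0.0883. Igkv3-9 and Igkv3-3, members of the family nearest to Igkc, had only 8 to 63 and 5 to 34 reads a library, with adjusted p of 0.0913 and 0.0932. With the replicate number as a block in the fit, the adjusted p fell to 0.00793 for Igkv12-41, 0.0179 for Igkv3-9 and 0.0217 for Igkv3-3, and it was 0.0826 for Igkv1-110. Without IL-10- replicate 3, Igkv12-41 passed the threshold with a log2 change of 0.81, and without IL-10+ replicate 4 Igkv3-9 and Igkv3-3 did so with 1.08 and 0.95.

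The other parts of the kappa transcript were also higher in IL-10+ cells. Igkc, the constant exon shared by all kappa chains, had 11753, 10126, 8925 and 8291 FPKM in the IL-10+ group and 2247, 2517, 2994 and 2372 FPKM in the IL-10- group, which is 3.86-fold higher on the means with no overlap. Its log2 change was 1.94 ± 0.13 (SE, limma adjusted p = 3.08e-05). The ratio of summed kappa V FPKM to Igkc FPKM was 1.17 ± 0.0224 (SD, n = 4) in IL-10+ and 1.15 ± 0.0687 (SD, n = 4) in IL-10-, and these ratios overlapped. All 5 kappa J segments were higher as well, from 1.93-fold for Igkj1 to 2.91-fold for Igkj2 on the means. The J segments are so short that their FPKM rest on very few bases. They include Igkj3, which is known not to give functional chains and had 710 ± 42.5 (SD, n = 4) against 255 ± 42.1 FPKM (SD, n = 4).

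Against this common rise, the composition of the kappa V transcripts was broadly similar in the sorted groups. For each library, the FPKM of a segment was divided by the summed kappa V FPKM to give its share. Across the 97 tested segments the log2 mean shares of the groups had a Pearson r of 0.959 and a Spearman rho of 0.951, a description over segments that share their libraries. Igkv1-117 held the largest mean share in both groups, 6.03% ± 0.309 (SD, n = 4) in IL-10+ and 5.20% ± 0.259 (SD, n = 4) in IL-10-. Igkv1-135 held 6.0% against 4.74%, rank 2 and rank 3, and Igkv6-15 held 4.29% against 4.92%, rank 4 and rank 2. Of the 8 segments with the largest mean shares, 5 were the same in the groups, and the 8 held 35.6% in IL-10+ and 32.7% in IL-10-. It took 14 to 15 segments to reach 50% of the summed FPKM in the IL-10+ group and 15 to 16 in IL-10- libraries.

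The portion of usage that differed between 2 libraries, taken as the summed absolute difference of shares divided by 2, was 7.31 to 10.2% within IL-10+ and 5.64 to 8.91% within IL-10- pairs. Between an IL-10+ and an IL-10- library it was 13.1 to 17.8%, above every within-group pair. The inverse Simpson index, the number of equally used segments that would give the same concentration of usage, was 38.4 ± 0.148 (SD, n = 4) in IL-10+ and 41.9 ± 0.727 (SD, n = 4) in IL-10- without overlap. Usage was thus somewhat more concentrated in the IL-10+ libraries. With Igkv14-126 left out the index was 38.8 ± 0.943 (SD, n = 4) against 41.5 ± 0.689 (SD, n = 4), again without overlap.

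To ask which segments departed from the common rise, each library was scaled to its summed kappa V FPKM before the same limma fit. The scaling carries the variation of that sum into all other genes, toward whose variance limma draws that of each segment. The scaled SE and p thus do not measure the spread of shares alone. For Igkv1-117, whose shares did not overlap, the scaled log2 change was 0.21 ± 0.15 (SE, limma adjusted p = 0.186). Relative to that sum, 15 of the 97 segments rose, 19 fell and 63 did not pass the threshold. Of all genes tested, 0.627% were higher and 96.5% lower relative to the summed kappa V FPKM, since most genes did not take part in the kappa rise. With so many calls the adjustment hardly raises a p-value, and after Bonferroni adjustment over all genes, added after the data were seen, 2 segments remained higher, Igkv14-126 and Igkv4-91, and 1 lower, Igkv12-41. Shares did not overlap between the groups for 12 segments with IL-10+ above and 14 with IL-10+ below, beside 0.565% and 94.3% of all genes on the same scale. Of the called segments, 8 higher and 12 lower ones also had shares that did not overlap.

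**Figure D2:**
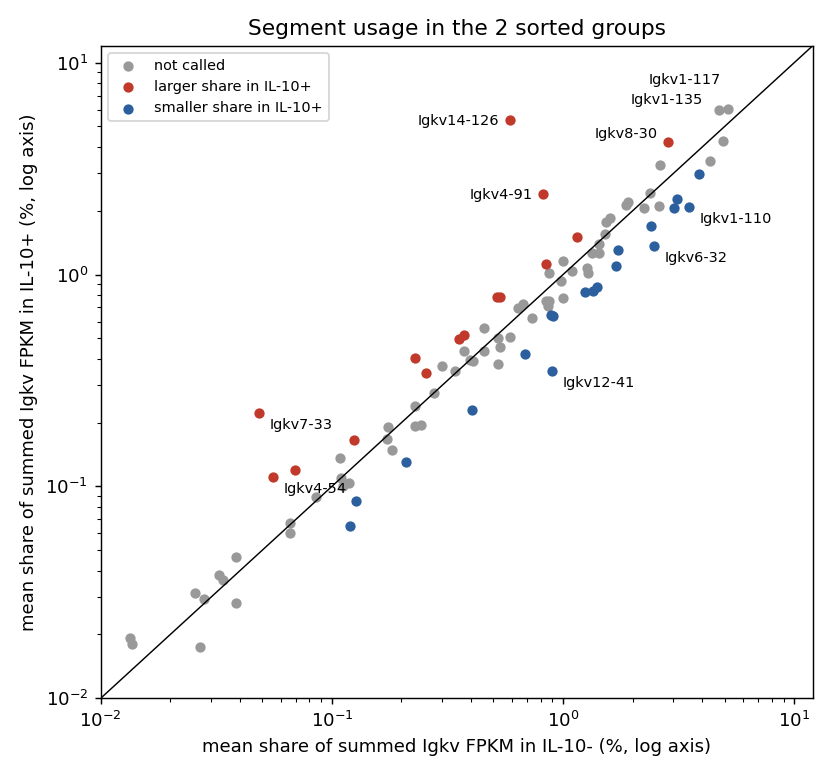
Each point is 1 tested kappa V segment, with its mean share of summed Igkv FPKM in the 4 IL-10- libraries (x axis, %, log scale) against that in the 4 IL-10+ libraries (y axis, %, log scale); the line marks equal shares, and colours mark the 15 larger and 19 smaller shares called in the scaled fit. Most segments lie near the line, while Igkv14-126 lies far above it at 5.37% against 0.589%.

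The segment that stood farthest from the common rise was Igkv14-126, on the plus strand at the distal end of the locus. Background knowledge links it to B-1 cells, where it pairs with the heavy chain segment Ighv11-2 in receptors that bind phosphatidylcholine. Its V exon and that of its closest relative, Igkv14-111, are shown from the GENCODE M21 transcripts (GRCm38) because one rose and the other fell in share. They lie at chr6:67896345-67896642 and chr6:68256572-68256869, both on the plus strand. Capitals in Igkv14-111 mark the 27 of 298 bases at which it differs from Igkv14-126, an identity of 90.94%.
Igkv14-126: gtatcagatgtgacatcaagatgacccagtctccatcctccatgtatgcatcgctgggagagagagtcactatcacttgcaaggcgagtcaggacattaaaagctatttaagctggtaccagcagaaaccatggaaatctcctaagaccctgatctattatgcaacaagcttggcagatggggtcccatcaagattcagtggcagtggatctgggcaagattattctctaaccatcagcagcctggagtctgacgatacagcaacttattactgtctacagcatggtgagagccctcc
Igkv14-111: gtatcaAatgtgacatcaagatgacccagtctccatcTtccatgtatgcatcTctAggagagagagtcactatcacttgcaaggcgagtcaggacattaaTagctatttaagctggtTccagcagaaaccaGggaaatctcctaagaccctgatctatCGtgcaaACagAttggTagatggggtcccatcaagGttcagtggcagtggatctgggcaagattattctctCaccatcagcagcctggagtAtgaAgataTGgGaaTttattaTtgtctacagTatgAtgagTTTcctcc

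Igkv14-126 had 797, 615, 438 and 612 FPKM in IL-10+ libraries. It had 14.2, 16.9, 16.4 and 20.8 FPKM in the IL-10- group. Every IL-10+ library was far above every IL-10- library, with IL-10+ replicate 3 the lowest of its group. The means of 616 ± 147 (SD, n = 4) and 17.0 ± 2.75 (SD, n = 4) differed 36.1-fold, and the log2 change was 5.08 ± 0.18 (SE, limma adjusted p = 4.58e-06). Its share of kappa V transcripts was 5.37% ± 0.938 (SD, n = 4) against 0.589% ± 0.0914 (SD, n = 4), which moved it from rank 49 to rank 3 of the 99 segments. Relative to the summed kappa V FPKM the log2 change was 3.15 ± 0.18 (SE, limma adjusted p = 2.37e-10). Igkv14-111 had 267, 215, 260 and 195 FPKM in the IL-10+ group and 83.6, 79.8, 99.1 and 88.6 FPKM in the IL-10- group. It was thus higher in every IL-10+ library, but its share fell from 3.03% in IL-10- to 2.06% in IL-10+ libraries, without overlap (scaled log2 change -0.56 ± 0.17 SE, limma adjusted p = 0.00319).

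The second of the phosphatidylcholine pairs known from B-1 cells is Igkv4-91 with the heavy chain segment Ighv12-3. Igkv4-91 had 294, 301, 231 and 265 FPKM in the IL-10+ group and 18.6, 26, 26.5 and 24.5 FPKM in the IL-10- group. The groups were far apart, the means differed 11.4-fold, and the log2 change was 3.46 ± 0.13 (SE, limma adjusted p = 4.58e-06). Its share was 2.40% ± 0.267 (SD, n = 4) against 0.821% ± 0.0759 (SD, n = 4), rank 10 against rank 44, and its scaled log2 change was 1.53 ± 0.17 (SE, limma adjusted p = 2.3e-08). The heavy chain partners moved in the same direction. Ighv11-2 had 398, 306, 186 and 261 FPKM in the IL-10+ libraries and 3.2 to 4.39 FPKM in the others. Ighv12-3 had 231, 257, 147 and 211 FPKM there, against 3.54 to 9.93 FPKM. Both were lowest in replicate 3 among the IL-10+ libraries, at 186 and 147 FPKM, as was each of the light chain partners. That low was not particular to these pairs, since Iglv1, Iglv2 and Igkv1-122 were lowest there too, although Iglv3 was not. Whether the heavy and light transcripts came from the same cells was not measured.

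Of the listed B-1 cell markers, 5 of the 12 tested were higher and 3 lower in IL-10+, with a median log2 change of 0.24. Among all genes tested, 10.6% were higher and 9.18% lower. The higher ones were Cd9, Ctla4, Spn, Bhlhe41 and Ptpn22, the lower ones Vim, Zcwpw1 and Fcrl5. Spn encodes CD43 and had 20.8 ± 3.79 (SD, n = 4) against 7.0 ± 0.736 FPKM (SD, n = 4). Cd5 and Itgam, also on the list, stayed below 1 FPKM in every library. The summed level of the list was 331 to 407 FPKM in the IL-10+ group and 367 to 429 FPKM in the IL-10- group. Its largest parts were Zbtb32 (mean 123 against 133 FPKM), Lgals1 (73.7 against 65.4) and Plscr1 (53.7 against 67.2), none of them called. The sum therefore says little about the called genes. The part of these cells in the rise of Igkv14-126 and Igkv4-91 was not tested.

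**Figure D3:**
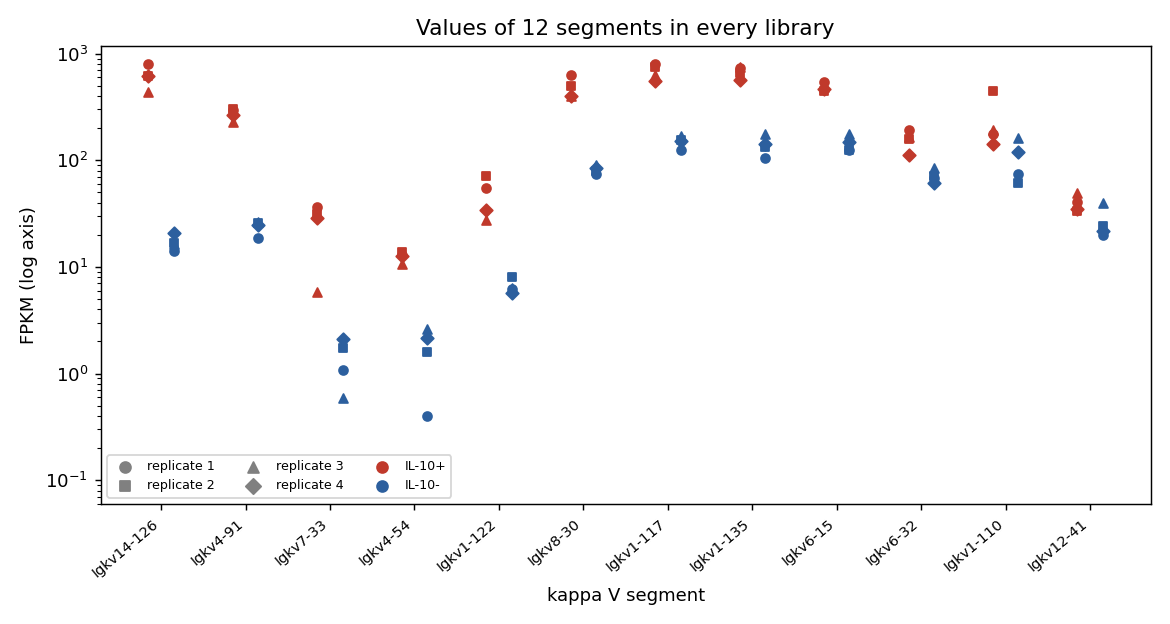
FPKM (y axis, log scale) of 12 kappa V segments (x axis) in each of the 4 IL-10+ (red) and 4 IL-10- (blue) libraries, with 1 symbol per replicate number. Igkv14-126, Igkv4-91 and Igkv8-30 show wide gaps between the groups, whereas the groups overlap for Igkv1-110 and Igkv12-41.

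The other segments with the largest scaled rises were mostly rare ones. Igkv7-33, the only segment of its family, had 36.7, 31.6, 5.88 and 28.9 FPKM in the IL-10+ group and 1.08, 1.73, 0.584 and 2.1 FPKM in the IL-10- group, from 62 to 367 and 6 to 23 reads. IL-10+ replicate 3 was much lower than the other 3 libraries of its group, and the scaled log2 change was 1.81 ± 0.37 (SE, limma adjusted p = 0.000102) while the shares overlapped. Igkv4-54 rose from 0.0556% to 0.111% of kappa V transcripts (scaled log2 change 0.96, limma adjusted p = 0.00156) and Igkv4-78 from 0.0696% to 0.120% (scaled log2 change 0.68, limma adjusted p = 0.00173), both without overlap. Igkv1-122 rose from 0.229% to 0.406% (scaled log2 change 0.75, limma adjusted p = 0.00315) with overlapping shares. Igkv2-112 rose from 0.534% to 0.785% (scaled log2 change 0.56, limma adjusted p = 0.00406) without overlap. Igkv8-30 was the abundant segment among these 8. It had 632, 502, 404 and 405 FPKM in the IL-10+ group and 74.2, 80.3, 90.6 and 85.4 FPKM in the IL-10- group, and its share was 4.22% ± 0.374 (SD, n = 4) against 2.85% ± 0.153 (SD, n = 4) with no overlap.

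Among the segments that fell in share, Igkv12-41 fell the most. Its V exon at chr6:69858420-69858717 (minus strand) is shown with that of its closest relative Igkv12-44 at chr6:69814631-69814928 (minus strand), because these near neighbours did not move alike. Capitals in Igkv12-44 mark the 13 of 298 bases at which it differs from Igkv12-41, an identity of 95.64%.
Igkv12-41: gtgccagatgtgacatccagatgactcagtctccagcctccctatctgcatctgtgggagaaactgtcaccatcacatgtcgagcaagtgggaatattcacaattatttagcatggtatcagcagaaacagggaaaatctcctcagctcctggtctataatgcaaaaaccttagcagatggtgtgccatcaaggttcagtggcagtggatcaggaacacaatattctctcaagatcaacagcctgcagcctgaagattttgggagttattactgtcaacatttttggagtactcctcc
Igkv12-44: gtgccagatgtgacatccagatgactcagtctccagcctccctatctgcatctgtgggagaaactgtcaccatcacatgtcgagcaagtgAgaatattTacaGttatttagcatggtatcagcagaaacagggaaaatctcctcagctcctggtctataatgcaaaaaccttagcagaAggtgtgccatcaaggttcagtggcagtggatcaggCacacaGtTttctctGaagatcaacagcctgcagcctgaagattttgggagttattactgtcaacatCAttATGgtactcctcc

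The share of Igkv12-41 was 0.303, 0.284, 0.461 and 0.359% in IL-10+ and 0.808, 0.868, 1.17 and 0.740% in IL-10-. All IL-10+ libraries were below all IL-10- libraries, with a scaled log2 change of -1.32 ± 0.19 (SE, limma adjusted p = 1.56e-06). The share of Igkv12-44 was 2.48, 1.99, 1.94 and 2.37% in IL-10+ and 1.84, 2.06, 2.01 and 1.71% in IL-10-. Those shares overlapped, with a scaled log2 change of 0.20 ± 0.17 (SE, limma adjusted p = 0.248). The sources used here do not say how reads that match both were counted, so the split between such close segments is uncertain. Of the 99 segments, 45 had a relative at 95% identity of the V exon or more, and 2, Igkv5-43 and Igkv5-45, reached 98.99%. The median identity to the closest relative was 93.96%. Igkv14-126, Igkv4-91 at 86.4% and Igkv7-33 at 79.6% were less like any other segment than that.

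Igkv6-32 fell from 2.48% ± 0.300 (SD, n = 4) in IL-10- to 1.37% ± 0.181 (SD, n = 4) in IL-10+ libraries without overlap (scaled log2 change -0.85 ± 0.17 SE, limma adjusted p = 8.98e-05). Igkv6-14, Igkv13-85, Igkv5-39 and Igkv8-21 fell likewise without overlap, with scaled log2 changes from -0.78 to -0.68 and adjusted p of at most 0.00078. Igkv12-38, a rare segment with 24 to 96 reads a library, had a scaled log2 change of -0.72 (limma adjusted p = 0.00264) with overlapping shares. Each of these 6 was nonetheless higher in IL-10+ libraries in FPKM, with unscaled log2 changes between 0.94 and 1.27. Igkv1-110 varied widely within the groups. It had 176, 449, 192 and 142 FPKM in the IL-10+ group and 75.1, 60.8, 163 and 121 FPKM in the IL-10- group. IL-10+ replicate 2 stood apart at 3.82% of kappa V transcripts, the shares overlapped, and the scaled log2 change was -0.82 ± 0.28 (SE, limma adjusted p = 0.00905). Leaving out replicate 1 of IL-10+ ended that call (adjusted p = 0.0518), as did leaving out replicate 3 of IL-10- (0.0538), and replicates 1 and 2 alone gave -0.20 against -1.44 from replicates 3 and 4 alone. The closest relative of Igkv1-110 is Igkv1-117, with 10 differences in the V exon. The call of Igkv19-93, from 3.88% to 2.97% at an adjusted p of 0.0473, was also lost with the replicate block (0.0643) and in 5 of the 8 fits that left out a library.

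The last bases of a V exon, after the codon of the conserved cysteine, encode the germline part of the third complementarity-determining region (CDR3), which contacts antigen and onto which the J segment is joined. These ends are shown for the 3 segments with the largest rise and the 3 with the largest fall in share, for the other members of family 14 and for 2 abundant segments, Igkv1-117 and Igkv6-15. Capitals mark the bases after the cysteine codon, up to the end of the V exon. On the plus strand lie Igkv14-126 at chr6:67896590-67896642, Igkv14-130 at chr6:67791459-67791511, Igkv14-111 at chr6:68256817-68256869, Igkv14-100 at chr6:68519425-68519477, Igkv1-110 at chr6:68271215-68271267 and Igkv1-117 at chr6:68121775-68121827. On the minus strand lie Igkv7-33 at chr6:70058632-70058684, Igkv4-91 at chr6:68768555-68768609, Igkv12-41 at chr6:69858420-69858472, Igkv6-32 at chr6:70074024-70074076 and Igkv6-15 at chr6:70406469-70406521.
Igkv14-126: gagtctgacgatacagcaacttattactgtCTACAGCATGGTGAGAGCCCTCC
Igkv7-33: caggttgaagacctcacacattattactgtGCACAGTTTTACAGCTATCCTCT
Igkv4-91: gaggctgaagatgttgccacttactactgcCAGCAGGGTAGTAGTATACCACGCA
Igkv12-41: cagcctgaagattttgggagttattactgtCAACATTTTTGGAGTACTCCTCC
Igkv6-32: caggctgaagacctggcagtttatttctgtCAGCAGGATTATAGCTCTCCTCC
Igkv1-110: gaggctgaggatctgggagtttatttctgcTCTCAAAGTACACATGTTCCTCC
Igkv14-130: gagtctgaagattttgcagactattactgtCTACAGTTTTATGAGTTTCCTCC
Igkv14-111: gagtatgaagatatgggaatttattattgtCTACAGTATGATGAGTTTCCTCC
Igkv14-100: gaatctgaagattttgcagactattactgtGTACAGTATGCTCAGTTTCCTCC
Igkv1-117: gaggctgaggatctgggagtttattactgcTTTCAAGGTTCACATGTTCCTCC
Igkv6-15: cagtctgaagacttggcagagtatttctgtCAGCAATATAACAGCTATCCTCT

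No other segment that could be compared shares the capitalised run of any of these 11. The run of Igkv4-91 has 25 bases, and each of the other 10 has 23. The cysteine codon was found in 98 of the 100 annotated segments. Junctions with J segments and added bases cannot be read from gene totals, so the CDR3 of the expressed chains was not measured.

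By family, the largest gain in percentage points of share was that of family 14, which has 4 segments spread over the distal plus-strand part of the locus. Its share of kappa V transcripts was 8.66, 7.83, 7.47 and 9.07% in IL-10+ and 4.77, 4.57, 4.32 and 4.72% in IL-10-, without overlap. This rested on 1 segment, since Igkv14-126 held 65.1% of the family's FPKM in the IL-10+ group and 12.8% in IL-10- libraries. Without Igkv14-126 the share of the family was 2.88% ± 0.336 (SD, n = 4) in IL-10+ and 4.0% ± 0.145 (SD, n = 4) in IL-10-, so the direction turned, again without overlap. Among the 3 remaining members, Igkv14-111 fell in share, and Igkv14-130 and Igkv14-100 had scaled log2 changes of 0.02 and -0.26 (limma adjusted p = 0.918 and 0.141).

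Of the 20 families, 4 had larger shares in IL-10+ and 5 had smaller shares without overlap, and 11 overlapped. Family 4, the largest with 26 segments, all on the minus strand, held 16.6, 16.4, 14.5 and 16.7% in IL-10+ and 12.9, 13.2, 13.3 and 13.3% in IL-10-. All 26 of its members were called higher in FPKM, and relative to the summed kappa V FPKM 7 rose, 1 fell and 18 did not pass the threshold. Igkv4-91 alone held 2.40% in IL-10+ against 0.821% in IL-10-, beside family means of 16.0% and 13.2%. In replicate 3 Igkv4-91 made up 2.17 of the 14.5% in IL-10+ and 0.775 of the 13.3% in IL-10-. Without Igkv4-91 the share of family 4 in replicate 3 was therefore lower in IL-10+ than in IL-10-. The groups then overlapped, although the mean remained higher in IL-10+. The gain without overlap thus holds only with Igkv4-91 included. Family 8 held 14.8% ± 0.579 (SD, n = 4) against 13.0% ± 0.246 (SD, n = 4). Of its 10 members, 2 rose in share and 1 fell. Without Igkv8-30 the share of family 8 was 10.6% ± 0.906 (SD, n = 4) against 10.1% ± 0.275 (SD, n = 4), and the groups overlapped. Family 2 held 1.72% ± 0.0919 (SD, n = 4) against 1.52% ± 0.0949 (SD, n = 4), with Igkv2-112 the member that rose and Igkv2-109, its most abundant member, at a scaled log2 change of -0.08 (limma adjusted p = 0.659).

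Family 6 had the largest fall in percentage points. Its 9 segments held 12.1, 11.5, 12.9 and 12.2% in IL-10+ and 16.4, 15.6, 15.9 and 15.9% in IL-10-. It was the most used family in IL-10- libraries, while family 4 was the most used on the means in IL-10+ libraries. Of its members, 5 fell in share and 0 rose in the scaled limma fit, with the same counts at an unadjusted p below 0.05, and its most abundant one, Igkv6-15, had a scaled log2 change of -0.20 (adjusted p = 0.231). Family 3, whose 9 segments are the group next to Igkc, held 4.47% ± 0.638 (SD, n = 4) against 5.79% ± 0.484 (SD, n = 4), with 3 members lower in share, Igkv3-4 among them. Family 13 held 1.06% ± 0.0613 (SD, n = 4) against 1.59% ± 0.168 (SD, n = 4), and both of its members, Igkv13-84 and Igkv13-85, fell. Family 17 held 3.41% ± 0.280 (SD, n = 4) against 4.34% ± 0.171 (SD, n = 4), and family 5 held 3.85% ± 0.172 (SD, n = 4) against 4.27% ± 0.0938 (SD, n = 4). Of the 5 members of family 5, only Igkv5-39 was called in the scaled fit, with 0.873% in IL-10+ against 1.41% in IL-10-. That fall exceeded the fall of the family, so the other members together did not fall on the means. Shares add up to a whole, so a larger share of 1 segment lowers all others. With Igkv14-126 left out of its family and of the sum, families 3 and 5 overlapped between the groups, and families 6, 13 and 17 remained lower and families 2, 4 and 8 higher without overlap.

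**Figure D4:**
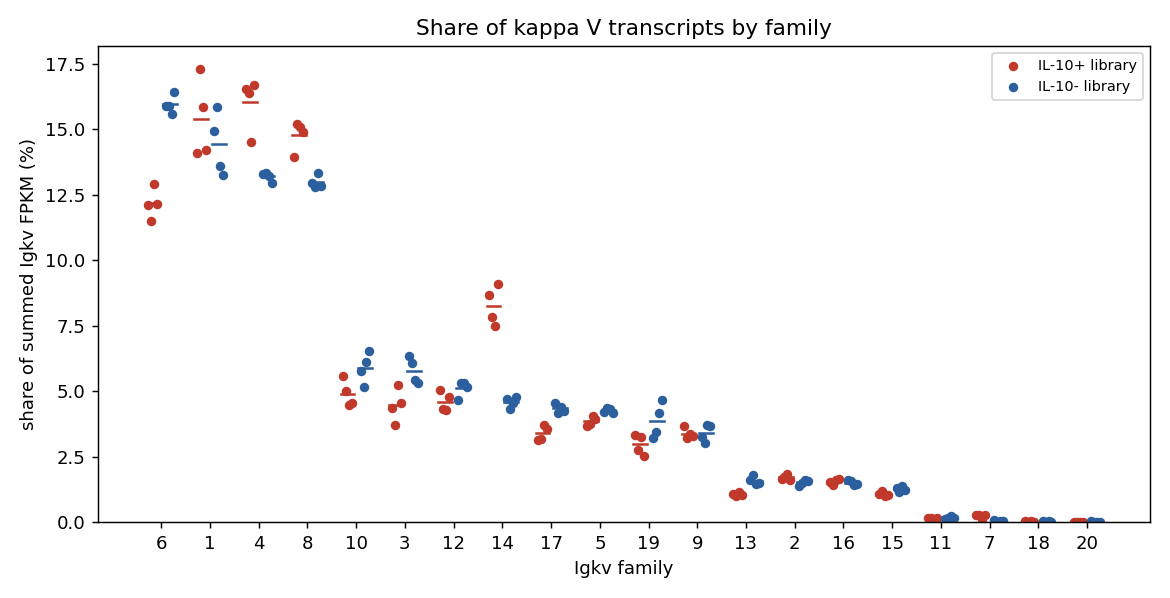
Share of summed Igkv FPKM (y axis, %) held by each of the 20 Igkv families (x axis, ordered by the mean in IL-10-), with 1 point per library in IL-10+ (red) and IL-10- (blue) and lines at the group means. Family 6 is lower in all IL-10+ libraries at a mean of 12.2% against 15.9%, and families 4, 8 and 14 are higher.

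Among the families that overlapped, family 1 held 15.4% ± 1.52 (SD, n = 4) in IL-10+ and 14.4% ± 1.20 (SD, n = 4) in IL-10-, with Igkv1-110 and Igkv1-122 moving in opposite directions in share. Family 10 held 4.90% against 5.90% and family 12 held 4.6% against 5.12%. Family 9 held 3.38% ± 0.196 (SD, n = 4) against 3.40% ± 0.330 (SD, n = 4), and none of its 4 members was called in the scaled fit, also at an unadjusted p below 0.05, with scaled log2 changes from -0.19 to 0.21. Families 7, 11, 15, 16, 18, 19 and 20 consist of 1 segment each. Of these Igkv16-104 stayed near the common rise, at 1.56% against 1.52% and a scaled log2 change of 0.04 ± 0.16 (SE, limma adjusted p = 0.817). Igkv15-103 had 1.07% against 1.27% and Igkv11-125 had 0.149% against 0.183%, with adjusted p of 0.161 and 0.173. Igkv18-36 and Igkv20-101-2 were near the detection limit in IL-10- libraries, at 0.824 and 0.403 FPKM on the means.

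Members of a family resemble each other more than members of different families, with a median identity of the V exons of 88.06% over 532 pairs within families and 63.52% over 4418 pairs between them. Changes in share did not follow family membership alone, since families 1, 4, 8, 12 and 14 each held segments called in both directions. Families differ in where they lie, which makes position and family partly the same measure. Family 4 lies between positions 68755038 and 69701287 on chromosome 6, family 6 between 70074024 and 70458036 and family 3 between 70518250 and 70704177.

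Along the locus, the segments were divided into 5 bins of 19 or 20 in order of position. The most distal bin, positions 67555497 to 68426072, held 32.5% ± 0.856 (SD, n = 4) of kappa V transcripts in IL-10+ and 28.6% ± 0.747 (SD, n = 4) in IL-10-, without overlap. With Igkv14-126 left out of the bin and of the sum, it held 28.7% ± 1.39 (SD, n = 4) against 28.2% ± 0.757 (SD, n = 4), and the groups overlapped. The bin next to Igkc, positions 70260409 to 70704177, held 17.7, 16.4, 19.0 and 18.1% in IL-10+ and 21.2, 20.8, 21.8 and 22.3% in IL-10-. It was lower in every IL-10+ library, and it was so without Igkv14-126 as well, at 18.8% ± 1.08 (SD, n = 4) against 21.7% ± 0.696 (SD, n = 4). In that bin 7 of 19 tested segments fell in share and 1 rose, and the median scaled log2 change was -0.39. The other 3 bins overlapped, but without Igkv14-126 the middle bin held 14.1% ± 0.853 (SD, n = 4) against 12.1% ± 0.421 (SD, n = 4) without overlap. In the middle bin 5 of 20 segments rose in share and 0 fell in the scaled limma fit, also at an unadjusted p below 0.05, and at adjusted p below 0.05 all 20 were higher in FPKM.

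The shares of the strands overlapped between the groups. Segments on the plus strand held 41.8% ± 1.23 (SD, n = 4) of kappa V transcripts in IL-10+ and 41.1% ± 1.39 (SD, n = 4) in IL-10-. With Igkv14-126 left out, the difference of the plus-strand share was -2.35 percentage points (IL-10+ minus IL-10-), again with overlap. Called changes in share were 4 higher and 9 lower among the 37 tested plus-strand segments and 11 higher and 10 lower among the 60 on the minus strand.

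Annotated kappa V pseudogenes, which lie between the functional segments and cannot encode a chain, were measured as a background of the locus. The table holds 36 of them, with a summed level of 53.6 ± 12.9 FPKM (SD, n = 4) in the IL-10+ group against 17.0 ± 1.09 FPKM (SD, n = 4) in the IL-10- group. Only 8 of them passed the filter on low values, and 5 of these 8 were called higher, beside 10.6% of all genes tested. Relative to functional segments plus pseudogenes they made up 0.465% ± 0.0747 (SD, n = 4) and 0.593% ± 0.112 (SD, n = 4), which overlapped.

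Within groups the shares of most segments varied little. Over the 71 segments with at least 5 FPKM in every library, the median coefficient of variation of the share was 12.3% in IL-10+ and 10.5% in IL-10-. Taken on shares, it leaves out variation that the segments of a library have in common. The segments with the widest spread of share, named after their values were seen, were Igkv1-110 at 55.9% and Igkv8-24 at 46.6%, both in IL-10+. Igkv8-24 had 115, 281, 367 and 293 FPKM in IL-10+ libraries, replicate 1 being the low one, and 50.9, 70.8, 89.2 and 68.0 FPKM in the IL-10- group. Both segments are abundant, with at least 695 reads for Igkv1-110 and 520 for Igkv8-24 in every library.

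Genes that act on kappa transcription and recombination are given beside the 10.6% higher and 9.18% lower among all genes tested. Promoters of immunoglobulin genes carry an octamer motif bound by Oct-1 and Oct-2 with their coactivator OBF-1. Pou2af1, which encodes OBF-1, had 680 ± 42.2 (SD, n = 4) against 338 ± 28.7 FPKM (SD, n = 4) and was higher, as was Pou2f1, and Pou2f2 had a log2 change of -0.34 (limma adjusted p = 0.0766). Of 16 factors known to bind the kappa enhancers, 2 were higher, Irf4 at 143 ± 18.6 (SD, n = 4) against 58.5 ± 5.47 FPKM (SD, n = 4) and Tcf4, and 5 were lower, among them Pax5, Spib, Stat5a and Nfkb1. Of 10 genes for the folding of the locus, such as Ctcf and the cohesin subunits, 1 was lower, Yy1, and 0 were higher in limma's test, with 1 in each direction at an unadjusted p below 0.05. Of 11 tested genes of V(D)J recombination, Lig4 was higher and Atm lower, so the counts for locus folding and recombination lay near the shares among all genes. Rag1 and Dntt stayed below 1 FPKM in all libraries, and Rag2 was not analysed here. Of the surrogate light chain list, Igll1 and Vpreb1 stayed below 1 FPKM in every library. Vpreb3, the only tested gene of that list, was higher at 29.8 ± 4.85 (SD, n = 4) against 20.2 ± 2.87 FPKM (SD, n = 4).

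Markers of antibody-secreting cells rose beside the kappa V segments. The marker counts stand beside the 10.6% higher and 9.18% lower among all genes tested. Of 15 tested plasmablast markers 14 were higher and 0 lower in limma's test, with the same counts at an unadjusted p below 0.05, and their summed level was 1751 to 1897 FPKM in IL-10+ against 509 to 619 FPKM in the IL-10- group. Of 14 markers of mature B cells 0 were higher and 10 lower, or 0 and 11 at an unadjusted p below 0.05, with 1392 to 1820 against 1791 to 2523 FPKM. Among them Cd79a, a subunit of the B cell receptor, had 593 ± 62 (SD, n = 4) against 532 ± 79.3 FPKM (SD, n = 4). Of the marginal zone B cell markers 6 of 12 tested were higher and 3 lower, some of them shared with the other lists. Of the 13 T cell markers 10 stayed below 1 FPKM in every library, Cd3e, Cd3d and Cd3g among them. The others were Cd2 at 26.5 ± 1.89 (SD, n = 4) against 26.1 ± 5.35 FPKM (SD, n = 4), Trac at 0.344 to 2.14 against 0.321 to 1.18 FPKM, and Lck, which was lower at 1.94 ± 0.494 (SD, n = 4) against 4.86 ± 0.460 FPKM (SD, n = 4). The summed T cell list was 26.6 to 33.0 FPKM in the IL-10+ group and 25 to 38.6 FPKM in the other. Of the 13 myeloid markers measured, 11 stayed below 1 FPKM in every library, Lyz2, Csf1r and Adgre1 among them, while S100a9 reached 1.21 FPKM in 1 IL-10- library and Cd68 had 7.78 ± 1.69 (SD, n = 4) against 7.67 ± 1.89 FPKM (SD, n = 4). The summed myeloid list was 6.52 to 10.8 FPKM against 7.44 to 11.7 FPKM. All 7 listed natural killer cell genes in the table stayed below 1 FPKM in every library. The part of any of these cell states in the kappa V changes was not tested.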

How the data were processed

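The deposited gene table holds FPKM per gene and library as the authors computed them. HISAT2 2.1.0, HTSeq 0.6.0 and mm10 are named per the submitters' processing notes, and for the annotation release, strand setting and multiply mapped reads: not given in the sources used here. Identifiers were matched to GENCODE M21 (26550 of 26589). Dividing FPKM by the value of 1 read gave whole numbers, within 0.05, for 93.4 to 93.6% of values. Genes that reached 1 FPKM in 4 or more libraries were tested on log2(FPKM + 1) with limma 3.58.1 in R 4.3.3, with a variance trend and Benjamini-Hochberg adjustment over all 11329 genes, and again after scaling to summed kappa V FPKM. Shares by family, position and strand received no test. The segments, marker lists and tests were chosen with earlier results of these data known. Named segments are the 8 with the largest and the 8 with the smallest scaled change, the 8 with the largest mean share in each group, those not called and the most abundant of each family. Other segments were named after their values were seen. Same-numbered libraries of the groups deviated from their group means together (r of 0.58 to 0.71, against at most 0.43 for other numbers), which by a rule of r above 0.1 in every pair counts as pairing, and the block was fitted as an alternative. Promoter motifs and recombination signals were not analysed here.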

Additional observations from a re-analysis of the deposited data

Results flagged for a closer look

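Of 126 groups of 4 values examined, 3 held a library far from the other 3, by a criterion that chance meets in about 1 of 20 groups. All 3 concern IL-10+ replicate 3. The share of family 4 was 14.51% there and 16.4 to 16.7% in the other IL-10+ libraries. The share of Igkv7-33, which is also the share of family 7, was 0.05521% there and 0.269 to 0.294% in the others.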

How the results depend on the processing

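The number of segments called higher in FPKM was 93 and lay between 83 and 96 under every alternative run, 96 with the replicate block, and 0 were lower in each. Relative to the summed kappa V FPKM, 15 higher and 19 lower segments became 12 and 21 with the replicate block, 11 to 16 and 16 to 21 with a library left out, and 2 and 1 with Bonferroni adjustment, which is stricter by construction. Beside the calls given with Igkv12-41, Igkv3-9, Igkv3-3 and Igkv19-93, the block brought Igkv3-9 and Igkv3-3 past the threshold in the scaled fit (adjusted p = 0.0379 and 0.048) and changed no other call among the named segments. Share differences, in percentage points of IL-10+ minus IL-10-, moved when the most abundant member of a family was left out: -0.7256 for family 3, -3.147 for family 6, 0.4247 for family 8, -0.2646 for family 13, -0.4215 for family 17, -0.1055 for family 10, whose shares had overlapped, and, reversed, -1.121 for family 14. With Igkv14-126 left out of family and sum, a choice made after seeing the data, they were 3.681 for family 4, -0.2251 for family 5, -3.179 for family 6, 2.554 for family 8, 0.4814 for the most distal bin, 1.973 and 0.4838 for the middle bin and the one after it, -2.35 for the plus strand and, reversed, -0.9831 for family 14, and the inverse Simpson index differed by -2.662. Depth limits the rare segments: Igkv18-36, Igkv20-101-2, Igkv3-3 and Igkv3-9 rest on few reads.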
